A study of Mus musculus with 247 samples.

Results

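The type I interferon antiviral genes described here are 35 genes whose transcription in mouse macrophages is known to follow interferon-beta, taken from the tables by gene symbol. All 35 were found among the 14378 genes of the deposited RNA table, and all 35 passed the filter on low values, which 11791 genes passed. In the chromatin tables, every site that the deposited annotation assigns to one of these genes was taken. This gave 114 of 73206 open-chromatin (ATAC) sites, 72 of 52093 PU.1 sites, 93 of 58888 JunB sites, 49 of 26718 MED1 sites and 80 of 23360 RNA polymerase II sites.

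The cells were RAW264.7, an established macrophage-like line of BALB/c mouse origin, unedited (WT) or carrying a CRISPR/Cas9 knockout of Gps2 (KO). Gps2 encodes a subunit of the NCoR and SMRT corepressor complexes. Poly(A) RNA was sequenced from WT untreated, KO untreated, WT LPS and KO LPS cells, with 4 libraries per group, where LPS, a bacterial cell wall component, was given at 10 ng/ml for 6 hours. ChIP libraries came in pairs, for PU.1 and JunB in all 4 groups and for MED1 and RNA polymerase II in WT LPS and KO LPS cells after 2 hours of LPS, at a dose not given in the sources used here. ATAC libraries came from 3 wells of untreated control cells and 3 wells of untreated KO cells. The sources used here do not say whether the KO line is 1 clone or whether RNA libraries came from separate cultures, so the p-values measure only the spread between these libraries, which may be technical.

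Macrophages that sense bacterial lipopolysaccharide make interferon-beta, which binds the IFNAR1 and IFNAR2 receptor on the same and neighbouring cells. The receptor's kinases JAK1 and TYK2 activate STAT2, which acts in a complex with IRF9 that binds the interferon-stimulated response element (ISRE) near the starts of antiviral genes. The products sense viral RNA, block translation, degrade RNA, trap budding virus or modify proteins with the ubiquitin-like protein ISG15, and some of them feed back on the pathway, such as USP18, which restrains the receptor.

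The ISRE can be read in the members' promoters. The sequences below are the 200 bases before the start of 3 genes, 5′ to 3′ along the gene, from RefSeq (GRCm38.p6 table), placed on mm9 by their own sequence match. They are shown because Isg15 and Bst2 were lower in KO LPS cells while Ifit1 was not called, and all 3 hold the element more than once. Capitals mark matches, on either strand, to the ISRE core, written here as GAAA, any 2 bases and GAAA again (on the other strand TTTC, any 2 bases and TTTC).
Isg15, chr4:155574928-155575127, minus strand: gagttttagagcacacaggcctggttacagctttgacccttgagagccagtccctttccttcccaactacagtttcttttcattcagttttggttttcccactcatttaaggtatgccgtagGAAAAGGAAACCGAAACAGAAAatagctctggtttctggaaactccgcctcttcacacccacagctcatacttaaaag
Bst2, chr8:74061372-74061571, minus strand: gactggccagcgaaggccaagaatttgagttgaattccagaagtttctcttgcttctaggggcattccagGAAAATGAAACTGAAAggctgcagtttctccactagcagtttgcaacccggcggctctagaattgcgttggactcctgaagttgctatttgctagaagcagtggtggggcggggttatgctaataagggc
Ifit1, chr19:34715179-34715378, plus strand: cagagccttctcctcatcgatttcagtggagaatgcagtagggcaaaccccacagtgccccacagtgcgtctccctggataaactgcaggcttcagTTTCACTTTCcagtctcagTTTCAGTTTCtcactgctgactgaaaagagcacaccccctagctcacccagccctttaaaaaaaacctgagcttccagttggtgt
With the base just before the start counted as -1, the matches in Isg15 begin at -78, -72 and -66 and overlap into a single stretch. Those in Bst2 begin at -130 and -124 and also overlap. Those in Ifit1 begin at -104 and -85 and lie on the opposite strand, as the complement of the core.

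Ifit3 and Ifit3b are near-identical neighbouring copies, and the 200 bases before their starts are shown beside those of Rsad2. In this set capitals also mark the AP-1 word TGANTCA, which JunB dimers bind. No letter of these sequences is shared between an ISRE and an AP-1 match.
Ifit3, chr19:34657819-34658018, plus strand: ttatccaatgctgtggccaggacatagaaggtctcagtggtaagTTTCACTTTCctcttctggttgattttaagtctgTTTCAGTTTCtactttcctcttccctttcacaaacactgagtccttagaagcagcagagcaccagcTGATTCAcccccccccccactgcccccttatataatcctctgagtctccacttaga
Ifit3b, chr19:34682247-34682446, plus strand: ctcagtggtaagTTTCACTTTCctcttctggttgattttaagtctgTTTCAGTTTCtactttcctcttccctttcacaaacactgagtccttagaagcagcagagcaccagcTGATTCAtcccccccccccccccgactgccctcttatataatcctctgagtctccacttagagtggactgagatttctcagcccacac
Rsad2, chr12:27141318-27141517, minus strand: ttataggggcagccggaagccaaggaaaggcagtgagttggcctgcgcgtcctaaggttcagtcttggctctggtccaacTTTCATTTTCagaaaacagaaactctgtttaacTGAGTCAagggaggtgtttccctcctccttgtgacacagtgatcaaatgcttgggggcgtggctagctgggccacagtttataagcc
The ISRE matches begin at -156 and -122 in Ifit3, at -188 and -154 in Ifit3b and at -120 in Rsad2. The AP-1 matches begin at -56, -88 and -87 in the same order. Aligned without gaps at a shift of 32 bases, 138 of 168 aligned bases (82.1%) were identical between the Ifit3 and Ifit3b sequences.

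Of the 35 members, 26 matched the RefSeq promoter table, which spans 250 bases before to 50 bases after a start. The ISRE core was found in 15 of these 26 (57.7%), beside 3.44% of all 32851 promoters in the table. The AP-1 word was found in 7 of the 26 members (26.9%) and in 7 of their 30 promoters, beside 7.81% of all promoters. Mx1, Mx2, Oas2, Dhx58, Usp18, Zbp1, Parp9, Parp14 and Rtp4 were not matched. A match describes letters only.

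RNA libraries held 12094940 to 22968591 mapped reads. Values are given as normalised reads, meaning reads per 10000000 mapped reads after scaling by the trimmed mean of M values (TMM) over all 16 libraries. Gps2 itself measured 458, 436, 426 and 415 in WT untreated, 420.4, 424, 422 and 496 in WT LPS, 132, 135, 129.6 and 133 in KO untreated and 76.9, 90.3, 98.5 and 95.6 in KO LPS libraries, so the KO libraries lay below all WT libraries but kept transcript reads. WT LPS replicate 4 stood apart from its mates: a chi-square per gene against each of them was 96.3 to 134.3, beside 1.24 to 9.38 for all other pairs within an RNA group. The counts of members called, and the members' differences between KO and WT with LPS, are therefore also given without it. Levels, SDs, responses in WT and values of other interferon pathway genes include it unless said. Markers of macrophages (9 of 9 in the table) summed to 83902.2 to 112282.8 in WT LPS and 104304.2 to 109737.2 in KO LPS libraries, and to 84252.2 to 93156.0 in WT untreated and 117042.4 to 123449.8 in KO untreated libraries. Markers of T cells and of epithelium had 0 of 4 genes each in the table, those of B cells 2 of 4 with a sum of at most 1.73, those of fibroblasts 1 of 4 with at most 1.1, and those of neutrophils 1 of 5 with 3.56 to 18.5 in WT LPS and 14.9 to 20.2 in KO LPS libraries. Markers of plasmacytoid dendritic cells (3 of 4 in the table) include the member Bst2 and summed to 5943.8 to 12160.0 in WT LPS and 5336.7 to 5472.7 in KO LPS libraries. Their part in the results was not tested. In bulk RNA, fewer expressing cells and less RNA per cell cannot be told apart.

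LPS raised every one of these genes in both lines. All 35 members rose in WT cells and all 35 in KO cells (limma, adjusted p under 0.05 over all genes tested), beside 34.2% of genes tested that rose and 36.2% that fell in WT and 31.5% and 36.1% in KO. None of the 35 was lower at an unadjusted p under 0.05 in either line. The median log2 response of the members was 4.07 in WT (1.98 to 8.26) and 4.09 in KO (1.53 to 7.72), beside a median of -0.02 over all genes in WT. With libraries scaled to their totals the median of all genes shifted to -0.48 in WT and -0.43 in KO, and all 35 members still rose in both lines.

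The plot of every member in every library shows this separation.

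**Figure D1:**
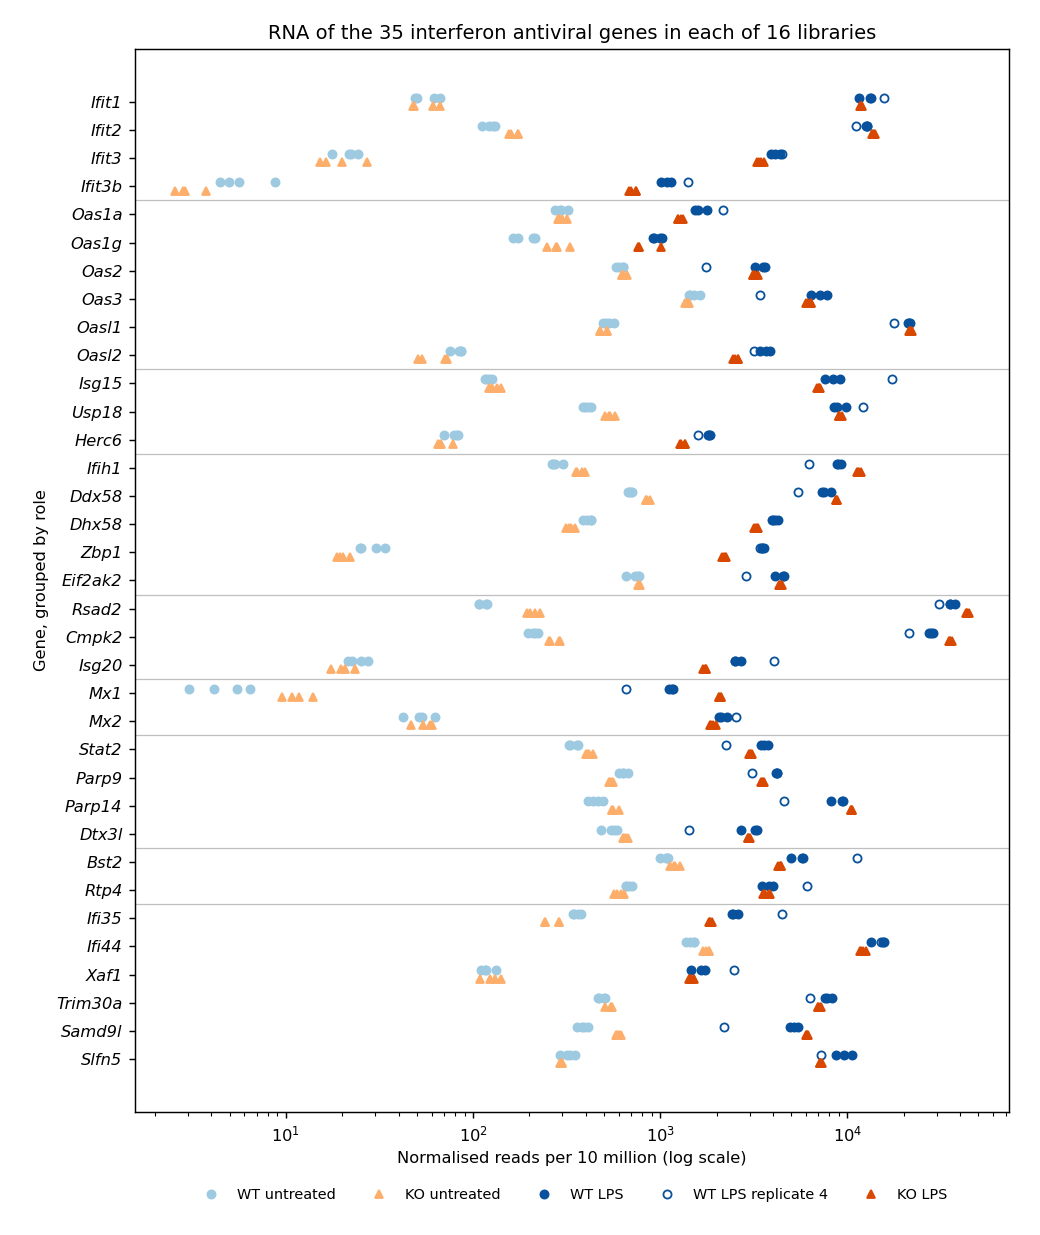
Each row is 1 of the 35 genes, grouped by role, and each point is 1 of the 16 RNA libraries, on a log scale of normalised reads per 10000000; open circles mark WT LPS replicate 4. LPS libraries of both lines lie to the right of untreated libraries for every gene, and the open circles of Samd9l, Dtx3l and Oas3 lie left of their mates while those of Isg15, Bst2 and Ifi35 lie right.

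By role, the IFIT proteins, which bind viral RNA, had the largest responses, with a median log2 response of 7.49 in WT. The nucleotide and RNA enzymes followed at 6.96 and the Mx GTPases at 6.44. The ISG15 system stood at 4.58, the other effectors at 3.67, the RNA sensors and kinase at 3.35, STAT2 with the PARP9-DTX3L group at 2.91, and the membrane and chaperone proteins at 2.64. The OAS family, which holds enzymes that activate the RNA-degrading enzyme RNase L and the OAS-like protein Oasl1, had the smallest median at 2.45. The smallest single responses in WT were those of Oas3 (1.98), Dtx3l (2.21) and Oas2 (2.26). Without replicate 4 the OAS median was 2.48 and that of the membrane and chaperone proteins, 2.43, was the smallest, and the smallest single responses were those of Oas3 (2.24), Oas1g (2.32) and Bst2 (2.37).

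Levels between genes were compared per kilobase of transcript, since the transcripts run from 752 nucleotides (Isg15) to 7232 (Parp14). In WT untreated cells the highest per-kilobase levels were those of Bst2 (1328), Ifi44 (514) and Rtp4 (429.9), and the lowest those of Mx1 (1.72), Ifit3b (2.96) and Ifit3 (10.8). With LPS the order in WT was led by Isg15 (14112), Oasl1 (9672), Rsad2 (9205) and Bst2 (8666) per kilobase. Without replicate 4 the WT order was Isg15 (11138), Oasl1 (10099.6), Rsad2 (9561), Cmpk2 (8807) and then Bst2 (6882). In KO LPS cells it was led by Rsad2 (11566), Cmpk2 (11149.7) and Oasl1 (10266), with Isg15 (9348) after them. Herc6 was lowest with LPS in both lines, at 336 in WT (347 without replicate 4) and 250.7 in KO per kilobase.

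In LPS-treated cells, the share of members called higher in KO was near or below that of all genes tested. The share called lower was above that of all genes. Mx1, Samd9l, Ifih1, Parp14, Cmpk2, Rsad2, Ddx58 and Ifit2 were higher in KO than in WT (8 of 35, or 22.9%, beside 22.1% of all genes tested). Isg20, Ifit3b, Zbp1, Ifi35, Bst2, Isg15, Oasl2, Oas1a, Herc6, Dhx58, Slfn5 and Ifi44 were lower (12 of 35, or 34.3%, beside 22.1%). The other 15 did not pass the test. The members' median log2 difference was -0.17, beside 0.00 over all genes tested. Without WT LPS replicate 4, the same 20 calls held in the same direction, and Oas3, Parp9, Stat2 and Trim30a were also called lower, giving 8 higher (22.9%) and 16 lower (45.7%), beside 28.8% and 29.0% of all genes tested in that fit. With libraries scaled to totals, 5 were higher (14.3%) and 13 lower (37.1%), beside 20.3% and 23.2% of all genes. In a fit of the WT LPS and KO LPS libraries alone, Ddx58, Ifit2, Parp14, Samd9l, Bst2, Isg15 and Slfn5 did not pass, and Ifit3 was called lower. The WT LPS and KO LPS libraries did not overlap for 21 of the 35 members (60.0%), beside 39.5% of all genes tested.

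**Figure D2:**
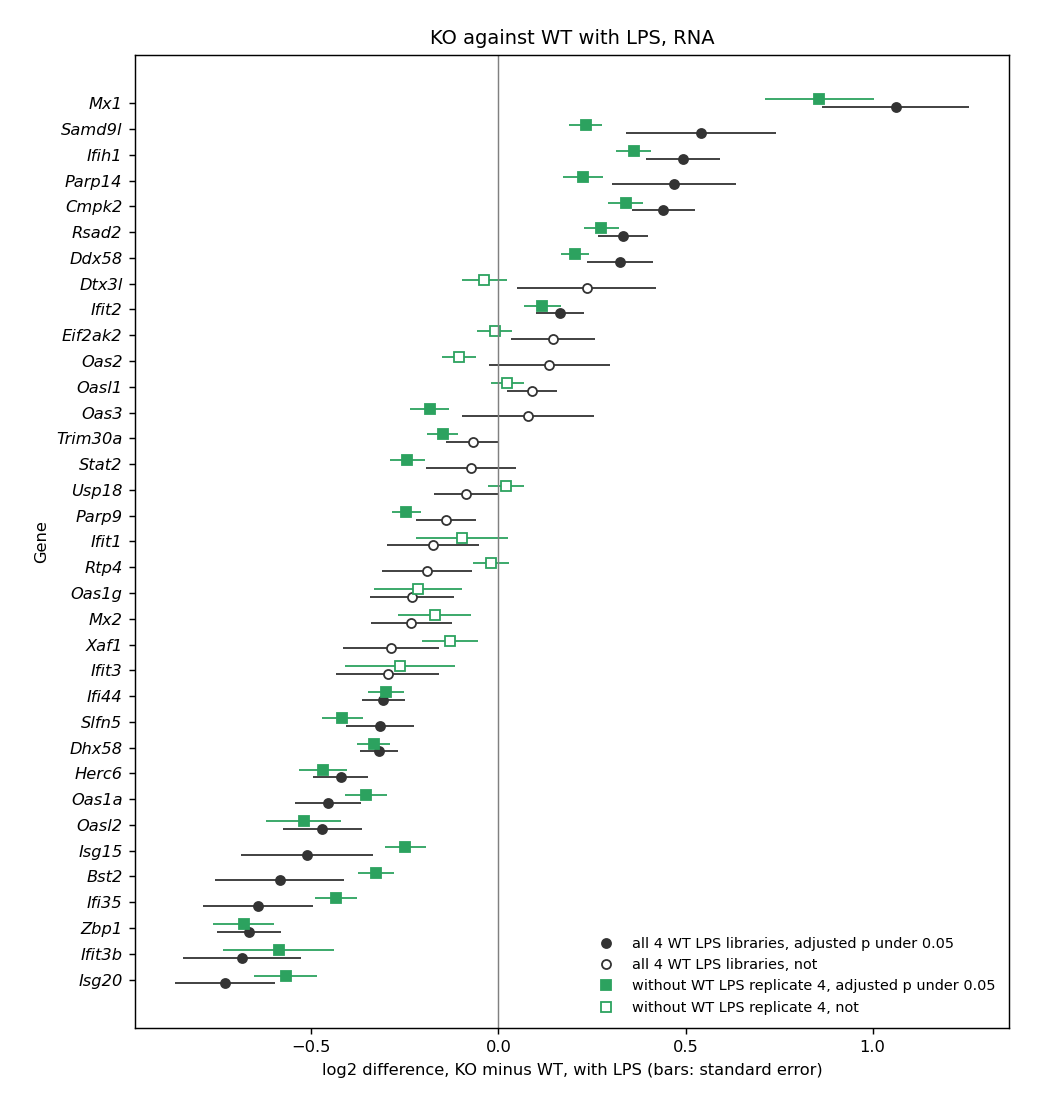
The horizontal axis is the log2 difference between KO and WT with LPS and each row is a gene; circles use all 4 WT LPS libraries, squares leave out replicate 4, bars are standard errors, and filled symbols passed an adjusted p under 0.05. Differences run from -0.73 (Isg20) to 1.06 (Mx1), and Oas3 changes side, from 0.08 to -0.18, when replicate 4 is left out.

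Among the IFIT proteins, Ifit1 recognises viral RNA caps and lies at chr19:34715379-34724499 (mm9). It measured 67.0, 48.8, 61.8 and 50.1 in WT untreated and 66.2, 48.4, 47.5 and 61.2 in KO untreated libraries. With LPS, Ifit1 measured 11568, 13167, 13348 and 15688 in WT and 11833, 12004, 11841 and 11685 in KO. The LPS groups overlapped, since WT replicate 1 lay below all KO libraries, and the log2 difference of -0.17 did not pass the test (adjusted p = 0.261), nor did the -0.10 found without replicate 4.
Ifit3b, which shares near-identical sequence with Ifit3 so that their reads may be split uncertainly, measured 4.43, 8.78, 4.98 and 5.62 in WT untreated and 2.81, 3.73, 2.88 and 2.55 in KO untreated libraries. With LPS, Ifit3b measured 1092, 1004, 1143 and 1410.1 in WT and 743, 747, 681 and 700.0 in KO. It was lower in KO in both states, by 0.77 untreated (adjusted p = 0.0013) and 0.69 with LPS (adjusted p = 0.0026; 0.59 without replicate 4) on the log2 scale. Ifit3 measured 21.7, 17.6, 22.4 and 24.2 in WT untreated and 15.2, 19.9, 16.3 and 27 in KO untreated libraries. With LPS, Ifit3 measured 4084, 3888, 4359 and 4493 in WT and 3597, 3467, 3349.9 and 3279.8 in KO. The LPS groups of Ifit3 did not overlap, yet its difference of -0.30 did not pass the test (adjusted p = 0.0941; -0.26 without replicate 4). Ifit2, whose product promotes apoptosis of infected cells, was higher in KO LPS cells at 13788 ± 258 against 12316 ± 791 (SD, n = 4 each; log2 difference 0.17, limma adjusted p = 0.0487; 0.12 without replicate 4, adjusted p = 0.0469). Scaled to totals its difference of 0.16 did not pass (adjusted p = 0.099), and it did not pass without 13 of the 16 libraries in turn, all but WT untreated replicate 1 and WT LPS replicates 2 and 4 (adjusted p 0.0502 to 0.105).

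The OAS enzymes and their relatives gave 2 lower members of 6 with LPS (33.3%, beside 22.1% of all genes tested) and none higher. Without replicate 4 it was 3 of 6 lower, in a fit where more of all genes tested were lower too. Oasl1 at chr5:115373249-115387920, an OAS-like protein that restrains translation of Irf7, had the most normalised reads of the family: 21067, 21388, 21627 and 17742 in WT LPS and 21351, 21582, 22030.1 and 21887 in KO LPS libraries. Its WT values overlapped the KO values apart from the low replicate 4, and the difference of 0.09 (0.02 without it) did not pass the test (adjusted p = 0.281). Oas3 measured 1418, 1442, 1631 and 1515 in WT untreated and 1353, 1420, 1395 and 1389 in KO untreated libraries. With LPS, Oas3 measured 7106, 7815, 6406 and 3428 in WT and 5992, 6401, 6376 and 6193 in KO. Replicate 4 of WT lay below every other LPS library, and the difference moved from 0.08 (adjusted p = 0.735) to -0.18 without it (adjusted p = 0.0045). Oas2 measured 3519.8, 3651, 3218 and 1763 in WT LPS and 3142, 3146, 3345 and 3219.6 in KO LPS libraries, with a difference of 0.14 that was -0.11 without replicate 4 and passed the test in neither case. Oasl2 was lower in KO with LPS by 0.47 (adjusted p = 0.0021; 0.52 without replicate 4), at 2537 ± 79.5 against 3527 ± 302 (SD, n = 4 each; limma). Oas1a, whose reads may be shared with its near-identical copy Oas1g, was lower by 0.46 (adjusted p = 0.000645), and without replicate 4 the log2 difference was -0.35 (adjusted p = 7.23e-06). Oas1g had the smallest KO response, 1.53, from an untreated level of 284 ± 34.6 in KO against 190.5 ± 24.9 in WT (SD, n = 4 each).

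The ISG15 system attaches and removes the ubiquitin-like protein ISG15. Isg15 at chr4:155573533-155574927 measured 122, 116, 117 and 126 in WT untreated and 121, 134, 127 and 141 in KO untreated libraries. With LPS, Isg15 measured 8406, 7634, 9088 and 17322 in WT and 7161, 7052, 7052 and 6851 in KO. All WT libraries lay above all KO libraries and replicate 4 lay well above its mates, and the difference of -0.51 (SE 0.18, limma adjusted p = 0.0281) became -0.25 (SE 0.05, adjusted p = 0.000365) without it. Without any 1 of the KO LPS libraries it did not pass (adjusted p 0.0505 to 0.0596). Herc6, the mouse ligase that conjugates ISG15, was lower by 0.42 (adjusted p = 0.000253), or 0.47 without replicate 4. Usp18, the protease that removes ISG15 and restrains the receptor, measured 9772 ± 1631 in WT LPS and 9119.5 ± 178 in KO LPS cells (SD, n = 4 each) and did not pass the test, with a log2 difference of -0.09 that was 0.02 without replicate 4.

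The cytosolic sensors of viral RNA moved in both directions. Ifih1 (MDA5, a sensor of long double-stranded RNA; chr2:62433850-62484312) measured 267, 266, 303 and 275 in WT untreated and 356, 359, 395 and 384 in KO untreated libraries. With LPS, Ifih1 measured 8756, 9273, 8913 and 6216 in WT and 11588, 11833, 11306 and 11417 in KO. The groups overlapped in neither state, and KO was higher by 0.43 untreated (adjusted p = 0.0032) and by 0.49 with LPS (adjusted p = 0.000867). Without replicate 4 the difference with LPS was 0.36. Ddx58 (RIG-I, a sensor of RNA ends) was higher with LPS by 0.33 (adjusted p = 0.0078), or 0.20 without replicate 4. Dhx58 (LGP2, a relative without signalling domains) was lower by 0.32 (adjusted p = 0.000122), or 0.33 without replicate 4.
Zbp1, a sensor of Z-form nucleic acid that can trigger cell death, lies at chr2:173032114-173044423. It measured 34, 30.2, 24.9 and 25.1 in WT untreated and 20.2, 21.9, 18.7 and 19.4 in KO untreated libraries. With LPS, Zbp1 measured 3513, 3494, 3604 and 3405 in WT and 2196, 2229, 2255 and 2147 in KO. The groups did not overlap in either state, and Zbp1 was lower in KO with LPS by 0.67 (SE 0.09, limma adjusted p = 1.33e-05), or 0.68 without replicate 4. Eif2ak2 (PKR, the kinase that halts translation on double-stranded RNA) measured 4022 ± 803 in WT LPS and 4373 ± 67.5 in KO LPS cells (SD, n = 4 each) and did not pass the test, with a difference of 0.15 that was -0.01 without replicate 4.

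Rsad2 and Cmpk2 are divergent neighbours that encode viperin, which makes a chain-terminating nucleotide, and the kinase that supplies its substrate. Rsad2 at chr12:27127608-27141317 measured 117, 118, 107 and 108 in WT untreated and 213, 194, 202 and 226 in KO untreated libraries. With LPS, Rsad2 measured 35273, 37788, 35271 and 30743 in WT and 43629.6, 44697, 42978 and 43435 in KO. The groups overlapped in neither state, and KO was higher by 0.89 untreated (SE 0.07, limma adjusted p = 3.08e-08) and by 0.33 with LPS (SE 0.07, adjusted p = 0.000797; 0.28 without replicate 4). Cmpk2 at chr12:27154080-27164702 measured 208, 222, 214 and 196 in WT untreated and 292, 255, 256 and 287 in KO untreated libraries. With LPS, Cmpk2 measured 27408, 28576, 28083 and 21219 in WT and 35212, 36090.0, 35547 and 35064 in KO. It too was higher in KO without overlap, by 0.38 untreated (adjusted p = 0.0025) and 0.44 with LPS (adjusted p = 0.000568), or 0.34 with LPS without replicate 4. Isg20, a 3′ to 5′ exonuclease that acts on RNA, measured 27.6, 21.4, 25.3 and 22.5 in WT untreated and 19.6, 17.4, 20.6 and 23.5 in KO untreated libraries. With LPS, Isg20 measured 2520.0, 2515, 2702 and 4038 in WT and 1749.7, 1762, 1695 and 1743 in KO. All WT LPS libraries lay above all KO LPS libraries, a log2 difference of -0.73 (SE 0.13, limma adjusted p = 0.000417), or -0.57 without replicate 4.

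Mx1, a gene of the dynamin-like GTPase family, had the largest positive difference with LPS among the members. At chr16:97668644-97684512 it measured 6.40, 5.49, 4.15 and 3.03 in WT untreated and 9.54, 10.8, 13.9 and 11.7 in KO untreated libraries. With LPS, Mx1 measured 1176, 1158, 1114 and 653 in WT and 2066, 2099.9, 2049.5 and 2121 in KO. No WT library reached a KO library in either state, and KO was higher by 1.14 untreated (adjusted p = 0.000279) and 1.06 with LPS (SE 0.20, limma adjusted p = 0.000443), or 0.86 without replicate 4 (adjusted p = 3.54e-05). Its neighbour Mx2 measured 42.3, 51.6, 53.5 and 62.7 in WT untreated and 60.1, 46.4, 59.0 and 54.1 in KO untreated libraries. With LPS, Mx2 measured 2055, 2121, 2280.1 and 2555 in WT and 1998, 1850.2, 1923 and 1872 in KO. The LPS groups of Mx2 did not overlap, with KO below WT, and its difference of -0.23 did not pass the test (adjusted p = 0.094; -0.17 without replicate 4).

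STAT2 is the interferon-specific subunit of the transcription factor, and PARP9, PARP14 and DTX3L are ADP-ribosylation proteins that act with it. Parp14 measured 414, 439.9, 493 and 464 in WT untreated and 552, 560.1, 600.4 and 555 in KO untreated libraries. With LPS, Parp14 measured 9492, 9397, 8157 and 4587 in WT and 10422, 10449, 10648 and 10563 in KO. KO lay above WT without overlap, by 0.47 (adjusted p = 0.0309) or 0.23 without replicate 4, and it did not pass when scaled to totals (adjusted p = 0.0532) or without any 1 KO LPS library (0.0567 to 0.0623). Parp9 and Dtx3l overlap at their starts on opposite strands and the strand setting of the counting is not given in the sources used here, so their reads may not be separable. Dtx3l measured 485, 546, 587 and 563 in WT untreated and 631, 641, 657 and 677 in KO untreated libraries. With LPS, Dtx3l measured 3191, 3296, 2686 and 1425 in WT and 2926, 3026, 2954 and 2964 in KO. Its difference of 0.24 with LPS did not pass the test and was -0.04 without replicate 4. Stat2 measured 3254 ± 696 in WT LPS and 3033 ± 50.0 in KO LPS cells (SD, n = 4 each), a difference that did not pass, and without replicate 4 it was called lower by 0.24 (limma adjusted p = 8.58e-05), as it also was with libraries weighted by quality.

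Bst2 (tetherin) holds budding virions at the cell surface and Rtp4 is a receptor chaperone. Bst2 at chr8:74058155-74061371 measured 1073, 1097, 1085 and 993 in WT untreated and 1183, 1269, 1131 and 1192 in KO untreated libraries. With LPS, Bst2 measured 5802, 4978, 5736 and 11213 in WT and 4445, 4281, 4391 and 4393 in KO. Every WT LPS library lay above every KO LPS library, with a difference of -0.58 (SE 0.17, limma adjusted p = 0.0122) and -0.33 without replicate 4. Rtp4 measured 4349 ± 1151 in WT LPS and 3726 ± 158 in KO LPS cells (SD, n = 4 each) and did not pass the test, with a difference of -0.19 that was -0.02 without replicate 4.

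The remaining effectors gave 1 higher and 3 lower members of 6 (16.7% and 50.0%, beside 22.1% of all genes tested in each direction). Without replicate 4 it was 1 and 4, in a fit where more of all genes tested passed in each direction too. Ifi44, whose protein is linked to reduced cell proliferation, had the most normalised reads of this set and measured 1517, 1379, 1451 and 1514 in WT untreated and 1814, 1691, 1822 and 1753 in KO untreated libraries. With LPS, Ifi44 measured 13389, 15758, 15555 and 15182 in WT and 12190.2, 12514, 11874 and 11721 in KO. KO was thus higher untreated, by 0.27 (adjusted p = 0.0015), and lower with LPS, by 0.31 (adjusted p = 0.000462; 0.30 without replicate 4), without overlap in either state. Ifi35, a leucine-zipper protein, measured 377, 343, 363 and 348 in WT untreated and 243, 288, 243 and 288 in KO untreated libraries. With LPS, Ifi35 measured 2429, 2451, 2615 and 4456 in WT and 1823, 1841, 1886 and 1844 in KO. It was lower in KO in both states, by 0.43 untreated (adjusted p = 0.0299) and 0.64 with LPS (adjusted p = 0.0023), or 0.43 with LPS without replicate 4. Samd9l, an antiviral factor that can restrain translation, measured 357, 381, 411 and 393 in WT untreated and 605, 587, 620.1 and 583 in KO untreated libraries. With LPS, Samd9l measured 5174, 5435, 4939.9 and 2199 in WT and 6187, 5996, 6118 and 6055 in KO. KO lay above WT in both states, and the LPS difference of 0.54 (adjusted p = 0.0395) was 0.23 without replicate 4 (adjusted p = 7.45e-05) and did not pass with libraries scaled to totals (adjusted p = 0.0612) or without any 1 KO LPS library (0.0685 to 0.0754). Slfn5, a Schlafen family member, was lower by 0.32 (adjusted p = 0.0106; 0.42 without replicate 4), while Xaf1, a promoter of apoptosis, and Trim30a, a tripartite-motif protein that restrains inflammatory signalling, did not pass the test at -0.29 and -0.07. Without replicate 4 Xaf1 was at -0.13, which did not pass, and Trim30a was lower by 0.15 (adjusted p = 0.0036).

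Without LPS, 10 members were higher in KO than in WT (28.6%, beside 18% of all genes tested) and 6 were lower (17.1%, beside 17.5%). The higher members were Ifit2, Rsad2, Cmpk2, Mx1, Oas1g, Ifi44, Ifih1, Ddx58, Usp18 and Samd9l, and the lower ones were Ifit3b, Oasl2, Ifi35, Dhx58, Zbp1 and Parp9. Of those higher, Mx1 (1.14), Rsad2 (0.89) and Samd9l (0.64) had the largest log2 differences, and Usp18 measured 536 ± 27.3 in KO against 404 ± 17 in WT (SD, n = 4 each; log2 difference 0.41, limma adjusted p = 0.0018). The median over the 35 was 0.08, beside 0.01 over all genes. With WT LPS replicate 4 left out of the shared fit, 15 were higher (42.9%) and 9 lower (25.7%), beside 30.2% and 29.1% of all genes, although that library is in neither group. With libraries scaled to totals, 8 were higher and 8 lower (22.9% each, beside 13.2% and 23.8% of all genes), and Ddx58 and Samd9l did not pass. Parp9 (-0.22) did not pass without 13 of the 16 libraries in turn, all but WT LPS replicates 1, 2 and 4, nor did Ifi35 without WT untreated replicate 1, 3 or 4 or KO untreated replicate 1 or 3, nor Samd9l without WT untreated replicate 1 or KO untreated replicate 3.

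The log2 response to LPS differed between the lines for 6 members, each smaller in KO (17.1%, beside 10.4% of all genes tested). Oas1g responded by 2.34 in WT and 1.53 in KO, a difference of -0.81 (limma adjusted p = 0.0016). Bst2 responded by 2.63 and 1.88, a difference of -0.75 (adjusted p = 0.0385), which did not pass without any 1 untreated or KO LPS library (0.0543 to 0.0753). For Ifi44 the difference was -0.58 (adjusted p = 7.56e-05), for Rsad2 -0.55 (8.26 in WT and 7.70 in KO, adjusted p = 0.000453), for Usp18 -0.49 (adjusted p = 0.0093) and for Oas1a -0.47 (adjusted p = 0.0134). Rsad2 was thus higher in KO in both states while its fold response was smaller. None responded more in KO by limma, where 10.2% of all genes did, and 0 members did at an unadjusted p under 0.05. Without WT LPS replicate 4, 16 members (45.7%, beside 19.9% of all genes) responded less in KO, including the same 6 with differences of -0.79 (Oas1g) to -0.37 (Oas1a), and none more (1 at an unadjusted p under 0.05).

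The library that stood apart differed from its mates by transcript length. WT LPS replicate 4 measured 0.424 of the mean of replicates 1 to 3 for Samd9l, 0.466 for Dtx3l and 0.482 for Oas3, but 1.78 for Ifi35, 2.04 for Bst2 and 2.07 for Isg15. It lay below its mates' mean for 21 of 35 members. Across the 35 genes, which share the library, its log2 deviation and log2 length had a Pearson r of -0.866 and a Spearman rho of -0.854, beside -0.551 and -0.643 over all genes tested. The KO minus WT difference with LPS followed length the other way, with r 0.607 and rho 0.658 over the members, and 0.37 and 0.424 without replicate 4. Over all genes tested these were 0.2 and 0.312, and 0.049 and 0.086 without replicate 4.

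**Figure D3:**
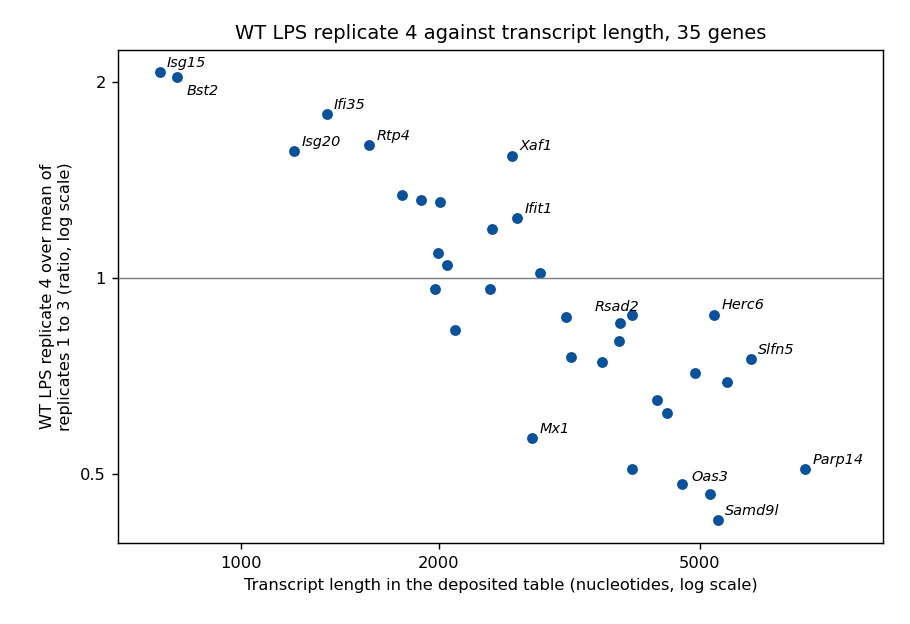
Each point is 1 of the 35 genes, with transcript length in nucleotides on the horizontal axis and, on the vertical axis, the level in WT LPS replicate 4 over the mean of replicates 1 to 3, both on log scales. Short transcripts such as Isg15 (752 nucleotides, ratio 2.07) lie above the line at 1 and long ones such as Samd9l (ratio 0.424) lie below it.

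Upstream of these genes, Ifnb1, the interferon-beta gene itself, was far higher in KO LPS cells. It measured 0.493, 0.548, 0 and 0 in WT untreated and 1.68, 1.24, 0.96 and 1.53 in KO untreated libraries. With LPS, Ifnb1 measured 54.8, 47.7, 63.4 and 128 in WT and 678, 671, 619.7 and 631 in KO. Every KO LPS library lay above every WT LPS library, a log2 difference of 3.24 (SE 0.25, limma adjusted p = 6.49e-08), or 3.54 without replicate 4. The receptor genes were lower in KO LPS cells, Ifnar1 by 0.42 (adjusted p = 0.0019; 0.56 without replicate 4) and Ifnar2 by 0.39 (adjusted p = 8.26e-06; 0.42 without it). Irf7, the factor that amplifies interferon induction, was lower both untreated (525 ± 9.51 against 919.5 ± 30.2) and with LPS (10149.9 ± 88.0 against 13674 ± 482; SD, n = 4 each), by 0.43 with LPS (limma adjusted p = 1.11e-06; 0.45 without replicate 4). Jak1 (0.26), Tyk2 (0.11), Irf9 (0.06) and Irf3 (-0.19) did not pass the test, with or without replicate 4 (without it 0.08, -0.13, 0.01 and -0.12).

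Of 88 other listed genes of the pathway, 75 were tested, and 5 were higher (6.67%) and 36 lower (48%) in KO LPS cells, beside 22.1% of all genes in each direction, with a median of -0.18. Without replicate 4, 7 were higher (9.33%) and 42 lower (56.0%), beside 28.8% and 29.0% of all genes. Among 46 other interferon-stimulated genes 1 was higher (2.17%) and 24 were lower (52.2%), beside the same 22.1%, or 2 and 28 without replicate 4. The higher one was Rnf213, a large ubiquitin ligase, by 0.60 (adjusted p = 0.0064; 0.38 without replicate 4). Those lowest in KO were Ifitm1 (-1.95) and Ifitm2 (-1.47), which encode membrane proteins that block viral entry, and Ifi27l2a (-1.29). Without replicate 4 these were at -1.80, -1.46 and -1.14. Of 9 brakes on the pathway, 6 were lower (66.7%, beside 22.1%) and none was higher (1 without replicate 4), among them Socs1 (-1.28) and Socs3 (-0.75), inhibitors of cytokine receptor kinases. For LPS in WT, 64 of the 75 rose (85.3%) and 4 fell (5.33%), and in KO 65 rose (86.7%) and 4 fell, beside 34.2% and 36.2% of all genes in WT and 31.5% and 36.1% in KO. Without LPS, 13 were higher in KO (17.3%) and 19 lower (25.3%), beside 18% and 17.5% of all genes, or 21 and 28 without WT LPS replicate 4 in the fit, beside 30.2% and 29.1%. The response was larger in KO for 8 (10.7%) and smaller for 24 (32%), beside 10.2% and 10.4%.

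In untreated chromatin, the member sites that passed the test were all more open in KO. Of 114 ATAC sites, 8 were higher (7.02%, beside 4.04% of all sites) by limma. None was lower, beside 3.16% of all sites, and 4 were lower at an unadjusted p under 0.05. The 114 sites had a median log2 difference of 0.03 and ranged from -0.22 to 0.41. Of these 8 sites, 3 were annotated to Rsad2, 2 to Oasl1, and 1 each to Cmpk2, Zbp1 and Mx1. Values here are the deposited log2 levels.
The site at the Rsad2 start, chr12:27140905-27141528, measured 4.31, 4.46 and 4.39 in control and 4.81, 4.75 and 4.70 in KO libraries (log2 difference 0.37, adjusted p = 0.000221). The site 17 kb from that start, chr12:27123784-27124791, measured 4.43, 4.33 and 4.46 in control and 5.02, 4.87 and 4.56 in KO libraries (0.41, adjusted p = 3.5e-05). At neither site did the groups overlap. The site at the Cmpk2 start, chr12:27153861-27154932, measured 5.84, 5.66 and 5.83 in control and 6.30, 6.20 and 5.93 in KO libraries (0.36, adjusted p = 0.000817), also without overlap. The site at the Oasl1 start, chr5:115371684-115373630, measured 7.21, 6.97 and 7.20 in control and 7.36, 7.57 and 7.51 in KO libraries (0.35, adjusted p = 0.000255), again without overlap.

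The ChIP libraries of each pair differed by about sampling noise, with a chi-square per site of 0.823 to 1.243. A value near 1 is sampling noise, and the largest was that of JunB in KO untreated cells. Each pair was counted as 1 sample per group, so the ChIP changes have no test. A change of over 1.5-fold is counted, and intervals are 95% Clopper-Pearson intervals on the summed reads, which cover counting error only. Changes are given with libraries scaled to shared sites by TMM and also scaled to all mapped reads, since the share of mapped reads inside the sites differed between the lines. For RNA polymerase II it ranged from 14.2% in a KO LPS library to 46.4% in a WT LPS library, with both WT libraries above both KO libraries. The same order held with LPS for MED1, PU.1 and JunB, with smaller gaps. The scaling therefore shifts every change between KO and WT with LPS. Whether the ChIP or the cells gave this difference in share was not tested.

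RNA polymerase II, the enzyme that transcribes these genes, stood higher at most of their sites in KO LPS cells, relative to other sites. Scaled to shared sites, 62 of 77 tested sites (80.5%) were higher by over 1.5-fold, beside 22.9% of all sites, and 1 (1.30%) was lower, beside 20.6%. The median log2 change was 1.19, beside -0.01 over all sites. Scaled to mapped reads, 14 (18.2%) were higher, beside 2.63% of all sites, and 40 (51.9%) were lower, beside 90.1%, with medians of -0.60 and -1.82. The median of the members therefore changed sign with the scaling, while under both it lay above that of all sites. The change was above 0 by shared sites and below 0 by mapped reads at 51 of the 77 sites.
The largest change was over Rsad2 (chr12:27122825-27141617), with 78.9 and 89.7 normalised reads in WT and 2528 and 2518 in KO. The log2 change was 4.89, a ratio of 29.9 (26.7 to 33.5), and 3.01 scaled to mapped reads. Over Ifih1, the site chr2:62449435-62450988 measured 2.50 and 1.91 in WT and 51.0 and 55.6 in KO (log2 4.08, or 2.46 scaled to mapped reads). Ifit1 (chr19:34713271-34718858), whose RNA did not pass the test, measured 29.0 and 33.4 in WT and 329 and 344 in KO, a ratio of 10.8 (8.80 to 13.3), with log2 values of 3.39 and 1.53 under the 2 scalings. Cmpk2 (chr12:27153076-27167336) measured 113 and 106 in WT and 936 and 882 in KO, with log2 values of 3.04 and 1.16. Oasl1 (chr5:115363453-115392869), the member site with most reads, measured 806 and 838 in WT and 6952 and 6829 in KO, with a ratio of 8.38 (8.04 to 8.72).
Some genes with lower RNA in KO at 6 hours of LPS had more polymerase in KO at 2 hours, relative to other sites. The Isg15 site (chr4:155562332-155584793) measured 275 and 264.9 in WT and 3813 and 3857 in KO, a ratio of 14.2 (13.3 to 15.2), with log2 changes of 3.82 by shared sites and 1.94 by mapped reads. The site at Zbp1 had changes of 2.21 and 0.37. At Bst2 the site measured 361 and 388 in WT and 685 and 658 in KO, a log2 change of 0.84 by shared sites but -1.04 by mapped reads. For every other gene with lower RNA, the site with most reads was also lower in KO by mapped reads. These were Ifi35 (-2.01), Oas1a (-1.38), Oasl2 (-1.16), Dhx58 (-1.06), Slfn5 (-0.92), Isg20 (-0.86), Herc6 (-0.70), Ifi44 (-0.52) and Ifit3b (-0.51). By shared sites all of these but Ifi35 (-0.14) were higher in KO. That Ifi35 site (chr11:101303288-101312151) was annotated to a transcript end and centred upstream of the Ifi35 start. Its reads can therefore not be assigned to Ifi35 alone. A smaller Ifi35 site, in an intron, was higher in KO, with log2 changes of 2.36 by shared sites and 0.56 by mapped reads. By mapped reads, a smaller tested site was also higher at Oasl2 (0.25), but lower at Dhx58 (-0.93) and Ifi44 (-1.06). The 1 site lower by over 1.5-fold was at the Ifit2 promoter, with 31.5 and 35.8 in WT and 21.1 and 15.6 in KO (log2 -0.84, ratio 0.545, 0.327 to 0.866).

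MED1, a subunit of the Mediator complex that links enhancers to polymerase, was higher by over 1.5-fold at 12 of 49 member sites (24.5%, beside 9.14% of all sites) and lower at 1 (2.04%, beside 7.28%) in KO LPS cells. Most of these 12 sites were annotated to 1 gene, Rsad2, and the others to Isg15, Ifit1, Ifit3b, Rtp4 and Zbp1. The share therefore does not describe a rise across the members. Scaled to mapped reads, 8.16% were higher and 55.1% lower, beside 0.986% and 65.8% of all sites. The higher ones on that scale were at Rsad2 and Ifit1. The Rsad2 site chr12:27131427-27132547 measured 4.69 and 4.64 in WT and 21.7 and 29.4 in KO, a ratio of 5.50 (2.87 to 11.4), with log2 values of 2.23 and 1.54 under the 2 scalings. The Ifit1 promoter (chr19:34714681-34716026), which holds the ISRE pair printed above, measured 13.3 and 10.8 in WT and 34.3 and 38.0 in KO (log2 1.51 and 0.78). The site at Isg15 measured 224 and 216 in WT and 366 and 383 in KO, which was a log2 change of 0.76 by shared sites and 0.00 by mapped reads. The lower site lay 4.3 kb from Oas1g and measured 21.9 and 29.4 in WT and 14.8 and 16.3 in KO (log2 -0.68). The site with most reads, at Oasl1, measured 722 and 736 in WT and 929 and 817 in KO (log2 0.26 by shared sites and -0.51 by mapped reads).

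**Figure D4:**
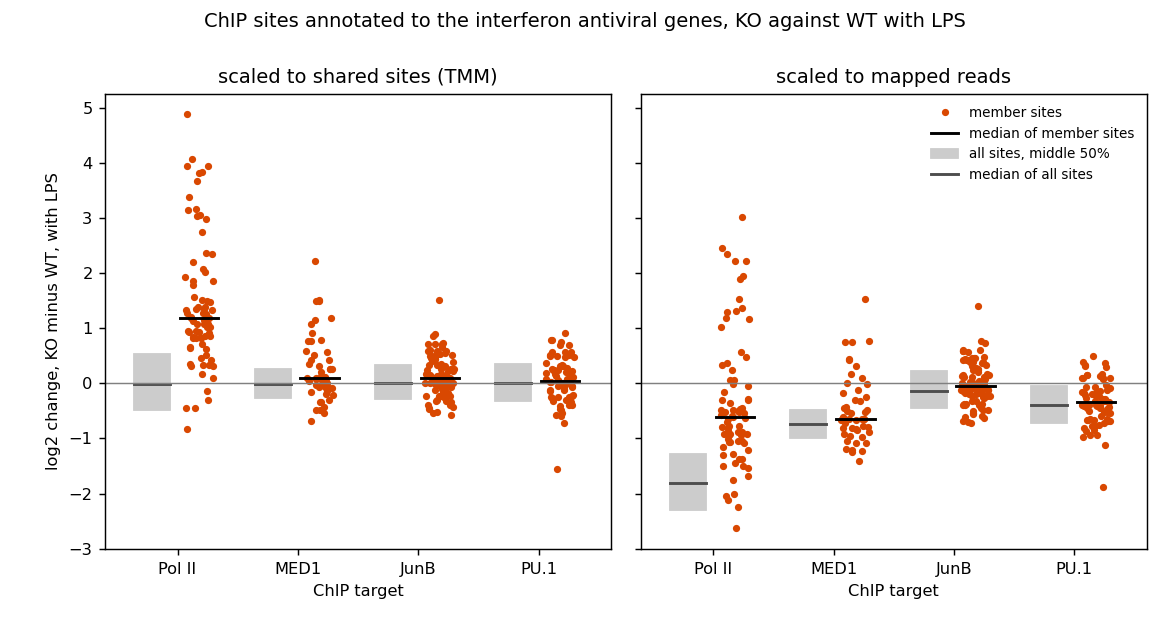
The vertical axis is the log2 change from WT to KO with LPS for 4 ChIP targets, scaled to shared sites on the left and to mapped reads on the right; points are member sites, black lines their median, grey boxes the middle 50% of all sites and dark grey lines the median of all sites. RNA polymerase II points lie mostly above the grey box, with 62 of 77 above it on each side, and a median of 1.19 against -0.01 on the left and -0.60 against -1.82 on the right.

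JunB, an AP-1 subunit, was higher by over 1.5-fold in KO LPS cells at 11 of 93 member sites (11.8%, beside 13.7% of all sites) and lower at 0 (beside 9.57%). Scaled to mapped reads 7.53% were higher and 6.45% lower, beside 10.5% and 16.5% of all sites. The 2 Rsad2 sites with the largest changes are printed as the 200 bases around their centres on the plus strand of mm9, with ISRE and AP-1 matches in capitals. They are shown because the first holds the AP-1 word and the second the ISRE core.
Rsad2 site 1, chr12:27126769-27126968, plus strand: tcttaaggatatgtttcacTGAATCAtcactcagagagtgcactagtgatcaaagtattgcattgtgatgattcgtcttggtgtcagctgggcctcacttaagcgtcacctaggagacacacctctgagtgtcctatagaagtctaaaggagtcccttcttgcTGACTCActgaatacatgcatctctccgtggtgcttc
Rsad2 site 2, chr12:27124285-27124484, plus strand: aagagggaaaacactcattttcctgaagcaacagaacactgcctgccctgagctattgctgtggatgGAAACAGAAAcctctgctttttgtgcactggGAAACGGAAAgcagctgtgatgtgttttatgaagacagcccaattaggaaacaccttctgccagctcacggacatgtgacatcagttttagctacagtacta
The first holds 2 AP-1 matches and no ISRE match, and lies in the called site chr12:27126764-27126975. JunB there measured 1.21 and 4.18 in WT untreated, 6.03 and 12.7 in KO untreated, 13.4 and 14.7 in WT LPS and 44.7 and 39.3 in KO LPS libraries, a ratio of KO to WT with LPS of 2.98 (2.28 to 3.93). The second holds 2 ISRE matches and no AP-1 match, in the called site chr12:27124216-27124554. It measured 22.3 and 25.5 in WT LPS and 47 and 41.2 in KO LPS libraries, a ratio of 1.84 (1.47 to 2.31). Over all 93 JunB sites of the members, 19.4% of such windows held the ISRE core, beside 2.59% of all JunB sites, and 48.4% held the AP-1 word, beside 52.4%. The higher ISRE share was not particular to JunB. It was 18.4% at member sites of MED1 (beside 2.62% of all), 11.1% for PU.1 (3.61%), 8.8% for ATAC (2.86%) and 5.0% for RNA polymerase II (2.68%).
JunB at the members was also compared with and without LPS. In WT, 32 of 93 sites (34.4%) were higher and 23 (24.7%) lower, beside 27% and 22.7% of all sites. In KO, 33.3% were higher and 22.6% lower, beside 31.7% and 24.7%. Scaled to mapped reads, 97.8% of member sites were higher in each line, beside 96% of all sites in WT and 93.5% in KO. The largest increases in WT were at Ifit2 (log2 2.05), Rsad2 (2.02) and Usp18 (1.90). Without LPS, 21.5% of member sites were higher and 17.2% lower in KO, beside 21.5% and 20.8% of all sites. With mapped reads as the scale these were 14% and 23.7%, beside 12.7% and 31.2%.

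PU.1, the lineage factor that opens macrophage enhancers, was higher in KO LPS cells at 6 of 72 member sites (8.33%, beside 14.9% of all sites) and lower at 3 (4.17%, beside 11.8%). The largest change was at a Samd9l site 49 kb from its start, with 19.4 and 16.9 in WT and 8.34 and 2.76 in KO (log2 -1.55, ratio 0.308, 0.123 to 0.682). The site with most reads, in an intron of Slfn5 (chr11:82766035-82766313), measured 142 and 138 in WT LPS and 146 and 159 in KO LPS libraries. With LPS, 12.5% of member sites were higher and 8.33% lower in WT (beside 12.2% and 13.1%), and 31.9% and 5.56% in KO (beside 19.5% and 15.2%). Without LPS, 2.78% were higher and 13.9% lower in KO, beside 7.20% and 10.3%. Scaled to mapped reads, 1.39% were higher and 43.1% lower with LPS in WT, beside 1.65% and 57.7% of all sites, and 13.9% and 38.9% in KO, beside 6.29% and 47.1%. On that scale no member site was higher in KO and 27.8% were lower with LPS, beside 5.6% and 34.6% of all sites.

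The Rsad2 and Cmpk2 neighbourhood is drawn because its sites were seen to change most, so it was picked after its values were seen.

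**Figure D5:**
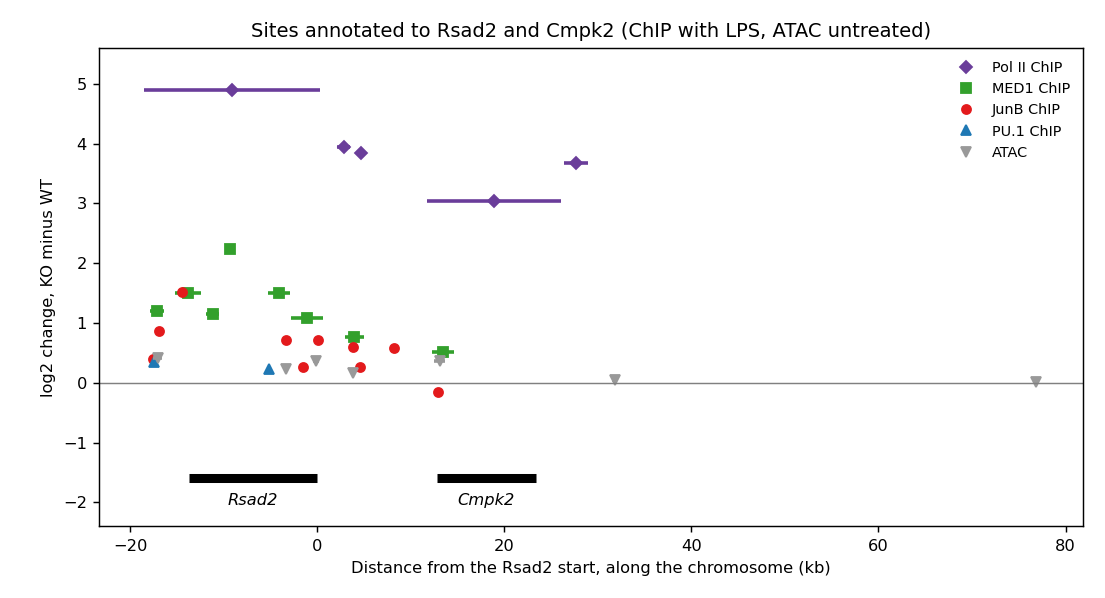
The horizontal axis is distance in kb from the Rsad2 start along the chromosome, with both genes drawn as black bars at the bottom, and the vertical axis is the log2 change from WT or control to KO, scaled to shared sites for ChIP (with LPS) and from deposited values for ATAC (untreated); symbols stand at site centres and lines span the sites. RNA polymerase II sites lie at 3.04 to 4.89, MED1 sites at 0.52 to 2.23, and JunB sites at -0.16 to 1.52.

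All 8 MED1 sites here were higher in KO under shared-site scaling, from 0.52 at the Cmpk2 start to 2.23 inside Rsad2. Scaled to mapped reads they ranged from -0.24 at the Cmpk2 start to 1.54. JunB was higher at 9 of 10 sites and lower at the Cmpk2 start by 0.16, with no test. The 2 PU.1 sites at Rsad2 had changes of 0.34 and 0.24, and of -0.07 and -0.15 scaled to mapped reads.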

How the data were processed

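RNA and ChIP values were deposited by the authors as reads per 10000000 mapped reads with decimal commas, with each library's depth in the file headers. The deposited ATAC values are on a log2 scale, by their range; the exact transformation is not given in the sources used here. Another 8 rescaled per-sample columns were not used. The submitters' processing notes name BWA, Bowtie2, HISAT2, HOMER, MACS2, DESeq2, edgeR and mm9, with no roles. Multiplied back by depth, 100.0% of RNA and ChIP values of up to 200 reads lay within 0.05 of a whole read, and these reads served for the filter and the counting intervals; because the deposited unit is a scaled value and not a count, the planned edgeR and DESeq2 fits were not run. RNA values were TMM-scaled and tested with limma 3.58.1 (R 4.3.3; trend, robust) on log2(value + 1), so folds of low genes are understated. All 16 libraries entered 1 fit, and genes were kept with at least 10 reads (at the median depth) in 4 libraries and 15 over all of them. P-values were adjusted by Benjamini-Hochberg over all 11791 genes or 73206 ATAC sites. ATAC was tested with limma on the deposited values, 3 against 3. ChIP pairs were counted as 1 sample, with a pseudocount of 1. The fits were tested on simulated data. Same-numbered libraries did not deviate together (RNA r -0.367 to 0.211, over 0.1 in 1 of 24 pairs), so the numbers do not pair them. ATAC libraries held 4038814 to 7108592 mapped reads and ChIP libraries 8096466 to 16006472. Members and lists were chosen with earlier results of these data known. All 35 members are named; values in every library are given for the member with the highest WT LPS mean in each role group, the 5 largest differences in each direction with LPS, and the 3 largest and 3 smallest WT responses. Named pathway genes are fixed signalling genes, 1 of which is not reported here, and the 3 largest differences each way. Sites named are those with most reads and the largest changes with at least 30 reads.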

Additional observations from a re-analysis of the deposited data

Results flagged for a closer look

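In groups of 4 RNA libraries, a library was looked at again where its gap to the nearest mate took up more of the group's range than Dixon's 95% critical value. This picked out 14 of 140 groups, where chance alone picks about 1 in 20. WT LPS replicate 4 was the library in 12 of the 14. It was highest for Isg15 (17322.3), Bst2 (11212.9), Ifi35 (4456.0) and Isg20 (4037.8), and lowest for Cmpk2 (21218.7), Oasl1 (17742.3), Ifit2 (11136.5), Ifih1 (6215.7), Parp9 (3109.2), Samd9l (2199.0), Herc6 (1600.7) and Mx1 (652.8 normalised reads). The other two were Oas1g in KO LPS replicate 1 (1005.2) and Usp18 in KO LPS replicate 2 (9385.3).

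The log2 response to LPS differed between KO and WT cells by the interaction term of the limma fit for Oas1g (-0.809), Bst2 (-0.753), Ifi44 (-0.581), Rsad2 (-0.553), Usp18 (-0.491) and Oas1a (-0.469), each smaller in KO.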

How the results depend on the processing

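Members rising with LPS numbered 35 in both lines under every alternative run. Among the RNA alternatives, the share of all genes called was computed only for library totals and without WT LPS replicate 4. Counts from the other RNA fits can therefore not be set against all genes, and a larger count is not a stronger result. For KO against WT untreated, library weights gave 16 higher and 11 lower. With LPS, 5 were higher with library totals and 4 when only the groups compared were fitted, a fit in which Ddx58, Ifit2, Parp14, Samd9l, Bst2, Isg15 and Slfn5 did not pass. Library weights gave 15 smaller responses in KO. Of the other pathway genes, library totals gave 9 and 11 lower for LPS in WT and KO, weights gave 20 higher and 30 lower untreated and 8 higher with LPS, and fitting only the groups compared gave 20 and 3 higher. Leaving out each library gave 5 to 8 members higher with LPS, 5 to 16 with a smaller response, 11 to 21 pathway genes higher untreated and 4 to 8 with LPS. Oas3 with LPS turned to -0.182 with weights and ranged from -0.184 (without WT LPS replicate 4) to 0.212 over the omissions, and the interaction of Oas2 from -0.163 (without the same library) to 0.187. Calls with LPS that some omission ended were those of Ifit2, Parp14, Samd9l and Isg15 (the last without any 1 KO LPS library); Bst2 lost its interaction, and Parp9, Ifi35 and Samd9l their untreated calls.

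With the replicate number as a block, which does not pair these libraries, 5 members were lower untreated, 7 higher with LPS and 5 had a smaller response, and 1 ATAC site was lower. Plain moderation gave 4 higher ATAC sites, and 4 lay within 1 kb of a start. Leaving out each ATAC library gave 0 to 1 lower. No paired analysis was possible for ChIP because there was no test.

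Percentages of ChIP sites past 1.5-fold moved as follows. For PU.1, library totals gave 1.39 higher and 43.1 lower for LPS in WT, 13.9 and 38.9 for LPS in KO, 0 and 50.0 for KO untreated, and 0 and 27.8 for KO with LPS. Sites within 1 kb of a start gave 0 and 0 for LPS in WT, 15.8 and 0 for LPS in KO, and 0 lower for KO with LPS. For JunB, totals gave 97.8 higher and 0 lower for LPS in each line and 6.45 lower for KO with LPS. Sites within 1 kb gave 20.0 higher for LPS in WT, 23.3 higher and 36.7 lower for LPS in KO, and 10.0 lower for KO untreated, where a pseudocount of 5 gave 8.60. For MED1, totals gave 8.16 higher and 55.1 lower, and a pseudocount of 5 or sites within 1 kb gave 0 lower. For Pol II, totals gave 18.2 higher and 51.9 lower, and sites within 1 kb gave 68.8 higher. Leaving out each library gave 1.08 to 7.53 lower for JunB with LPS and 0 to 8.16 for MED1. Of sites over 1.5-fold that the text's rule names, totals reversed JunB changes at Ifi35 (0.522) and Xaf1 (0.84) for LPS in WT and at Usp18 (0.127) and Trim30a (0.612) in KO, MED1 at Isg15 (-0.003) and Ifit3b (-0.117), and Pol II at Ifit3b (-0.508), Dtx3l (-0.793), Bst2 (-1.04) and Ifit3 (-1.078). Leaving out each library gave -1.024 (without KO replicate 2) to 1.958 for Pol II at Ifit3b. Counting changes of any size between KO and WT with LPS, the sign turned at 21 of 49 MED1, 51 of 77 Pol II, 17 of 93 JunB and 27 of 72 PU.1 sites. The cause was not tested. Planned fits with edgeR and DESeq2 were not run, because the deposited values are scaled. Sites with few reads have the widest intervals.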
